A study of Mus musculus with 6 samples.

Results

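Ribosome biogenesis genes were examined in mouse regulatory T cells induced in culture (iTreg) and treated with prostaglandin E2 (PGE2). The 58 genes were chosen by name, from RNA polymerase I and its factors to the assembly factors of both ribosomal subunits. The choice was made with earlier results of these data known, a limit on every comparison of the 58 with all genes below. An annotated gene entry was found for all 58 in each of the 6 libraries, and all 58 had a mean of at least 1 FPKM (fragments per kilobase of transcript, relative to all mapped fragments), among 12113 such genes out of 47643 listed. By step, 6 belong to the RNA polymerase I (Pol I) machinery, 9 to the small nucleolar ribonucleoproteins (snoRNPs), 19 to small subunit processing and 19 to large subunit processing. The other 5 are general nucleolar proteins or act on RNA more widely.

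The PGE2 group held 3 libraries of cells given 100 nM PGE2 for 6 h, and the Vehicle group 3 libraries of cells given DMSO for the same time. Both groups came from CD4+ T cells of the spleen of C57BL/6 mice with the Foxp3-DTR/EGFP genotype, in which Foxp3-expressing cells carry EGFP and the diphtheria toxin receptor. The cells had spent 2 days with plate-bound antibody to CD3, soluble antibody to CD28 and TGF-β, and the GFP-positive cells were sorted after the treatment. They are therefore regulatory T cells made in culture, not taken from a tissue, and the reporter allele is shared by both groups. The age of the mice is not given in the sources used here. Nothing in the labels says that the replicates came from separate mice or cultures, so a p-value measures only the spread between these libraries.

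The ribosome is made in the nucleolus, where Pol I copies the ribosomal DNA into a long precursor RNA. snoRNPs guide the methylation and pseudouridylation of that precursor, and nucleases cut it. Separate sets of assembly factors, many of them WD-repeat proteins, GTPases and DEAD-box helicases, help to fold it into the small and the large subunit. In T cells this pathway is known to be switched on by antigen receptor stimulation and growth signals, and MYC is a known activator of many of its genes.

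Depth, as the coverage behind 1 FPKM implies, was 4.542 to 5.446 gigabases of fragments in PGE2 libraries and 3.996 to 5.121 in Vehicle libraries. The summed level of 9 regulatory T cell and T cell markers, Foxp3 and Cd3e among them, was 1836 to 1869 FPKM in PGE2 libraries and 1625 to 1730 FPKM in Vehicle libraries. CD8 and NK cell markers summed to 47.6 to 50.3 FPKM with PGE2 and 57.9 to 61.6 FPKM with Vehicle, with Ncr1 and Klrb1c at 0 in every library, and 3 of these 7 markers reached a mean of 1 FPKM. Of 6 B cell markers 1 did, and the sum was 3.55 to 4.33 FPKM with PGE2 and 3.86 to 5.7 FPKM with Vehicle. Myeloid markers summed to 0.162 to 0.57 FPKM with PGE2 and 0.235 to 1.12 FPKM with Vehicle, with S100a8 and S100a9 at 0. Erythroid and platelet markers summed to 1.52 to 2.95 FPKM with PGE2 and 1.47 to 1.84 FPKM with Vehicle, with Pf4 and Ppbp at 0. The T cell sum was higher and the CD8 and NK cell sum lower in every PGE2 library. The single genes were split. Of the 9 T cell markers 7 had a higher and 2 a lower mean with PGE2. In the limma fit described below 1 of the 9 rose and 0 fell, with log2 changes from -0.11 to 0.79. Of the 3 CD8 and NK cell markers that reached a mean of 1 FPKM, 2 had a higher and 1 a lower mean. Most of their sum was 1 gene with a mean of 46.4 FPKM. Their log2 changes ran from -0.40 to 0.80, with 0 called by limma and 1 fall and 1 rise with the replicate block. The part of these markers in the results below was not tested.

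After PGE2 the ribosome biogenesis genes were lower nearly throughout, each by a modest amount. On the log2(FPKM + 1) scale 57 of 58 had a lower mean with PGE2, against 56.7% of all tested genes. The median log2 change of the 58 was -0.39, and that of all tested genes was -0.03. In 50 of 58 genes every PGE2 library lay below every Vehicle library, against 11.9% of all tested genes, and in 0 every PGE2 library lay above, against 7.81%. With limma, 3 genes fell after Benjamini-Hochberg adjustment over all tested genes (Grwd1, Gnl3 and Pus7) and 0 rose; the background shares were 0.239% and 0.57%. At an unadjusted p under 0.05, 44 of 58 were lower with limma and 0 were higher, against 7.59% and 5.46% of all tested genes.

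With the replicate number as a block in the fit, a pairing that rests on the data and not on the labels, 20 of the 58 fell and 0 rose, against 1.49% and 1.77% of all tested genes. These 20 include the 3 genes named above, and come from every step. In the data behind that pairing replicate 3 stands apart, while replicates 1 and 2 are not told from each other. The pairing was chosen from the same values that the block was fitted to, a limit on every call with the block. Within same-number pairs of libraries, 55 of 58 genes were lower with PGE2 in all 3 pairs, against 24.5% of tested genes. The exceptions were Polr1c, Emg1 and Fbl. The count is not separate from the one above, since all pairs must be lower in the 50 genes with every PGE2 library below every Vehicle library. When any 1 of the 6 libraries was left out, 0 members were called with limma, with 40 to 43 lower at an unadjusted p under 0.05 and 55 to 58 lower in the mean. Since these are bulk samples and FPKM are shares of a library, fewer cells that express a gene and less of its RNA per cell cannot be told apart.

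**Figure D1:**
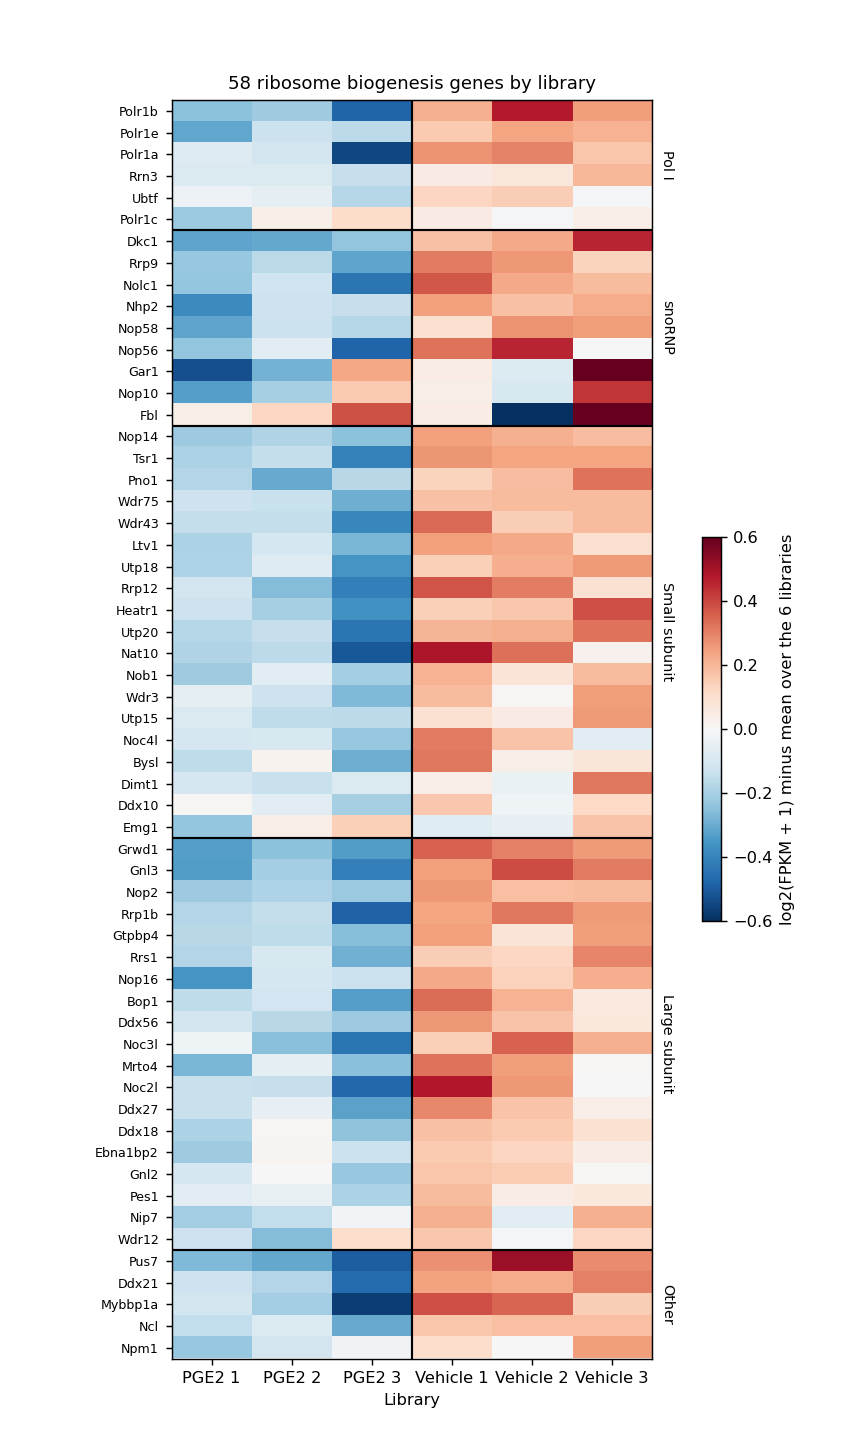
Level of each of the 58 genes (rows, by step) in the 3 PGE2 and the 3 Vehicle libraries (columns), as log2(FPKM + 1) minus the gene's mean over the 6 libraries; colours stop at 0.6 in either direction. In 50 of 58 rows all PGE2 libraries are below all Vehicle libraries, and Fbl, Gar1 and Nop10 vary most between libraries of 1 group.

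Promoter windows of RefSeq (GRCm38.p6), which run from 250 bases before a transcript start to 50 bases after it, were found for 52 of the 58 genes. Bop1, Fbl, Gnl2, Npm1, Rrp12 and Rrs1 had no entry. The windows were searched for CACGTG, the E-box that MYC-MAX dimers and other factors bind, and for TGACGTCA, the full cAMP response element bound by CREB. Both read the same on either strand and do not overlap each other in these windows. CACGTG was in the window of 12 of 52 members, or 23.1%, against 12.3% of 7903 tested genes with a window and 8.1% of all 27025 genes in the table. TGACGTCA was in 1 of 52, Noc4l, or 1.9%, against 4% of the tested genes and 2% of all genes. A match is a run of letters and says nothing of what is bound in these cells.

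In Rrn3, Nop2 and Utp18 the E-box lay before the transcript start, outside the annotated gene. The 250 bases before the start are shown to give the setting of these boxes, with the CACGTG in capitals. Rrn3 holds it at 2 places, 215 and 48 bases before the start; in Nop2 it begins 60 and in Utp18 20 bases before.
Rrn3, chr16:13780449-13780698, plus strand: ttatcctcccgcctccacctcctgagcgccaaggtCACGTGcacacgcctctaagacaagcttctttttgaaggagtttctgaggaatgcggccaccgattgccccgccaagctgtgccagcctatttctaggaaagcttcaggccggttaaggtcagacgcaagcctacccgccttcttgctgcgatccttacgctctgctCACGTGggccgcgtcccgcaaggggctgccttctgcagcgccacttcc
Nop2, chr6:125131633-125131882, plus strand: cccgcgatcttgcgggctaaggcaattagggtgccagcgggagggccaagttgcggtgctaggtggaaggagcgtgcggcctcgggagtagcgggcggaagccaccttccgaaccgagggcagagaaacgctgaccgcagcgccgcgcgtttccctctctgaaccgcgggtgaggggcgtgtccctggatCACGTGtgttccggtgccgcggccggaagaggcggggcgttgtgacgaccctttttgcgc
Utp18, chr11:93885767-93886016, minus strand: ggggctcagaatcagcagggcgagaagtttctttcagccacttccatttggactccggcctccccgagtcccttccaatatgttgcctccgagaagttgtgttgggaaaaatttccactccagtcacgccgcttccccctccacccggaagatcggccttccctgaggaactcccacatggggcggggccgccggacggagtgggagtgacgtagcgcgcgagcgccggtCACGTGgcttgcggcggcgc

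In the other 9 genes the E-box began 3 to 41 bases after the start. By GENCODE release M21 it lies in a transcribed leader exon in 8 of them and in coding sequence in Grwd1. The 30 bases around each of these sites are shown so that their flanks can be compared, with the CACGTG in capitals.
Pus7, chr5:23783666-23783695, minus strand: ggcgcagcgccgCACGTGtgcgagcccggc
Grwd1, chr7:45830740-45830769, minus strand: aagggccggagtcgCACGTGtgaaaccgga
Mybbp1a, chr11:72441347-72441376, plus strand: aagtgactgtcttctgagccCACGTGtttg
Tsr1, chr11:74898092-74898121, plus strand: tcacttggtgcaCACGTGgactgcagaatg
Pno1, chr11:17211540-17211569, minus strand: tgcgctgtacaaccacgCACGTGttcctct
Wdr43, chr17:71616220-71616249, plus strand: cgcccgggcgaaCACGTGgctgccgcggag
Utp20, chr10:88826765-88826794, minus strand: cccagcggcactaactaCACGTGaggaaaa
Ltv1, chr10:13193092-13193121, minus strand: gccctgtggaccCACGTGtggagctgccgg
Pes1, chr11:3963965-3963994, plus strand: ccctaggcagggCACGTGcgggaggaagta

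The median log2 change was -0.44 for the 12 members with CACGTG in the window and -0.38 for the 40 without it, a difference that was not tested. Of the 3 genes called by limma, Pus7 and Grwd1 hold the motif and Gnl3 does not.

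Among the Pol I genes all 6 had a lower mean with PGE2, against 56.7% of all tested genes, with a median log2 change of -0.31. Without the block 0 were called by limma, where 0.239% of all tested genes fell and 0.57% rose. At an unadjusted p under 0.05 with limma 4 were lower, against 7.59%. Polr1b, the second-largest subunit of the enzyme, had 5.02, 5.16 and 4.12 FPKM in PGE2 replicates 1, 2 and 3, against 7.27, 8.92 and 7.48 FPKM in Vehicle replicates 1, 2 and 3. The groups did not overlap. With limma the log2 change was -0.62 (SE 0.12, adjusted p = 0.072, and 0.029 with the replicate block).

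Polr1a, the largest subunit, which forms the catalytic core with Polr1b, had 4.35, 4.23 and 2.86 FPKM in the PGE2 replicates and 5.8, 5.94 and 5.33 FPKM in the Vehicle replicates. PGE2 replicate 3 was the lowest library, and the groups were apart (log2 change -0.49, SE 0.14, adjusted p = 0.21 with limma). Polr1e, a subunit that helps in initiation and elongation, had 6.13, 7.1 and 6.95 FPKM in the PGE2 replicates and 8.87, 9.43 and 9.22 FPKM in the Vehicle replicates. Its groups did not overlap (log2 change -0.40, SE 0.09, adjusted p = 0.11 with limma). Polr1e lies on chromosome 4 from 45018583 to 45036565 in the mm10 coordinates of the files, and Polr1b on chromosome 2 from 129100995 to 129126594.

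The other members of this step bring Pol I to its promoter or belong to the enzyme, and none of them passed either fit. Rrn3, which links the enzyme to the promoter-bound factors, averaged 15.6 ± 0.386 FPKM with PGE2 and 18.2 ± 1.12 FPKM with Vehicle (SD, n = 3 each, as below; log2 change -0.21, adjusted p = 0.34 with limma). Ubtf, the architectural factor of active ribosomal DNA, had the highest level of the 6, at 55.2, 54.2 and 50.1 FPKM in the PGE2 replicates and 61.8, 62.7 and 56.1 FPKM in the Vehicle replicates. Its groups were apart by less than 1 FPKM, and its log2 change of -0.18 (SE 0.09) did not pass with limma (adjusted p = 0.45). Polr1c, a subunit that RNA polymerase III also uses, overlapped between the groups, at 26.5 ± 3.21 FPKM with PGE2 and 27.3 ± 0.63 FPKM with Vehicle.

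Of the 9 snoRNP genes 8 had a lower mean with PGE2, against 56.7% of all tested genes, with a median log2 change of -0.43. With limma 0 were called, where 0.239% of all tested genes fell and 0.57% rose. At an unadjusted p under 0.05 with limma 6 were lower, against 7.59%. With the replicate block 5 fell, against 1.49%: Dkc1, Rrp9, Nolc1, Nop58 and Nop56. Dkc1 (dyskerin), the pseudouridine synthase of the H/ACA snoRNPs, had 20, 20.1 and 21.2 FPKM in the PGE2 replicates, against 28.5, 29.6 and 34.9 FPKM in the Vehicle replicates. The PGE2 libraries lay close together and far below the lowest Vehicle library. Its log2 change was -0.57 (SE 0.10, adjusted p = 0.055 with limma and 0.019 with the block).

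The other core proteins of the H/ACA particles are Nhp2, Nop10 and Gar1. Nhp2 averaged 41.5 ± 4.13 FPKM with PGE2 and 55.9 ± 1.45 FPKM with Vehicle (log2 change -0.43, adjusted p = 0.10 with limma), with no overlap. Gar1 had 15.3, 18.3 and 26.6 FPKM in PGE2 replicates 1, 2 and 3 and 23.3, 21.2 and 35.2 FPKM in Vehicle replicates 1, 2 and 3. Replicate 3 was the highest library of Gar1 in both groups, so the groups overlapped although each PGE2 library was below the Vehicle library of its number. Nop10 had the same order, with 33.5 FPKM in PGE2 replicate 3 and 40.6 FPKM in Vehicle replicate 3.

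The box C/D particles, which methylate ribosomal RNA, hold Nop56, Nop58 and Fbl. Nop56, the snoRNP gene with the highest level, had 97.2, 110 and 82 FPKM in the PGE2 replicates and 144, 158 and 115 FPKM in the Vehicle replicates. Every Vehicle library was above every PGE2 library, and replicate 3 was the lowest of its group in both (log2 change -0.52, SE 0.15, adjusted p = 0.20 with limma and 0.019 with the block). Nop58 averaged 13.1 ± 0.961 FPKM with PGE2 and 17.7 ± 1.19 FPKM with Vehicle (adjusted p = 0.11 with limma and 0.041 with the block). Rrp9, the protein specific to the U3 particle, had 16.7, 17.5 and 15.6 FPKM in the PGE2 replicates and 24.7, 23.8 and 21.7 FPKM in the Vehicle replicates. The groups did not overlap (log2 change -0.47, SE 0.09, adjusted p = 0.072 with limma and 0.030 with the block). Nolc1, a nucleolar chaperone of both kinds of snoRNP, had 25.3, 27.4 and 21.8 FPKM in the PGE2 replicates and 38.9, 35.1 and 34.2 FPKM in the Vehicle replicates. All PGE2 libraries were lower (log2 change -0.52, SE 0.11, adjusted p = 0.083 with limma and 0.033 with the block).

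Fbl (fibrillarin), the methyltransferase of the box C/D particles, was the exception. It had 65.1, 69.3 and 83.1 FPKM in PGE2 replicates 1, 2 and 3, and 65.6, 26 and 102 FPKM in Vehicle replicates 1, 2 and 3. Vehicle replicate 2 stood apart. The log2 change was 0.36 (SE 0.43, adjusted p = 0.81 with limma), and -0.18 without that library. In read coverage scaled to depth Fbl was at 19.1, 20.1 and 25.7 in the PGE2 replicates and 29.8, 24.4 and 31.5 in the Vehicle replicates. Vehicle replicate 2 was the lowest Vehicle library there too, but only slightly below PGE2 replicate 3, and the log2 change of coverage was -0.39 (adjusted p = 0.26 with limma). FPKM and coverage thus gave opposite directions for Fbl, and neither passed the test.

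**Figure D2:**
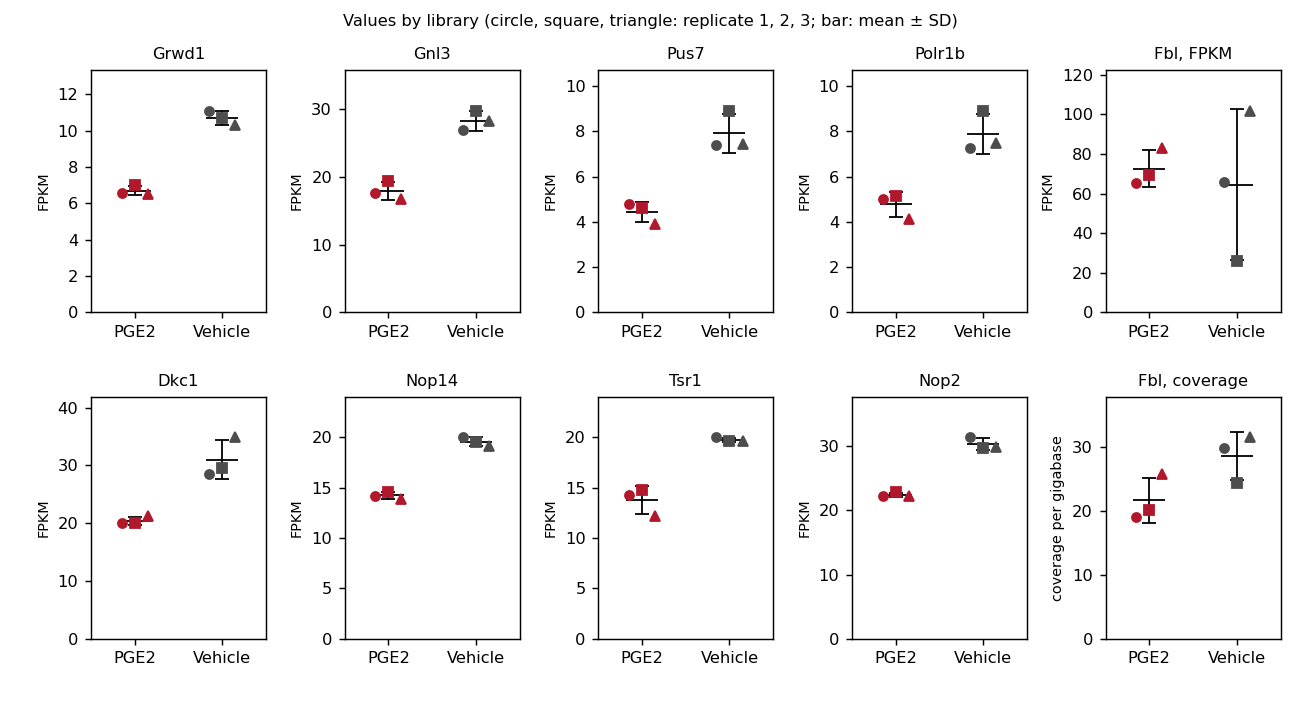
Values in each library for 8 genes in FPKM, and for Fbl in FPKM and in coverage scaled to depth, with PGE2 left of Vehicle; symbols mark replicates 1 to 3 and bars the mean ± SD. The 2 groups are apart for all 8 genes, and for Fbl the Vehicle libraries spread from 26 to 102 FPKM.

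All 19 small subunit genes had a lower mean with PGE2, against 56.7% of all tested genes, with a median log2 change of -0.38. With limma 0 were called, where 0.239% of all tested genes fell and 0.57% rose. At an unadjusted p under 0.05 with limma 15 were lower, against 7.59%. In 17 all PGE2 libraries were below all Vehicle libraries, against 11.9%. With the replicate block 6 fell, against 1.49%, namely Nop14, Tsr1, Pno1, Wdr43, Rrp12 and Nat10. Nop14, a scaffold protein of the small subunit processome, had 14.2, 14.6 and 13.9 FPKM in the PGE2 replicates and 20, 19.5 and 19.1 FPKM in the Vehicle replicates. The spread within each group was under 1 FPKM and the gap between the groups over 4 FPKM. With limma its log2 change was -0.43 (SE 0.08, adjusted p = 0.057, and 0.036 with the block).

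Late steps of the small subunit were lower in the mean as well. Tsr1, a GTPase-like factor of the cytoplasmic precursor, had 14.3, 14.8 and 12.2 FPKM in the PGE2 replicates and 20, 19.6 and 19.6 FPKM in the Vehicle replicates. All 3 PGE2 libraries were well below the narrow range of the Vehicle libraries (log2 change -0.50, SE 0.09, adjusted p = 0.072 with limma and 0.036 with the block). Pno1, the partner of the nuclease Nob1, had 14.8, 13.5 and 14.9 FPKM in the PGE2 replicates and 18.6, 19.3 and 21.4 FPKM in the Vehicle replicates. The groups were apart (log2 change -0.43, SE 0.09, adjusted p = 0.089 with limma and 0.044 with the block). Nob1 itself, which makes the last cut of the small subunit RNA, averaged 18.9 ± 1.2 FPKM with PGE2 and 23.9 ± 1.19 FPKM with Vehicle (log2 change -0.32, adjusted p = 0.16 with limma). Ltv1, an export and maturation factor, averaged 12.7 ± 0.785 FPKM with PGE2 and 16.8 ± 1.01 FPKM with Vehicle (log2 change -0.38, adjusted p = 0.12 with limma), and its groups did not overlap.

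The early processome was represented by the UTP proteins and their partners, which bind the precursor as it is made. Wdr43 averaged 23.6 ± 2.36 FPKM with PGE2 and 32.7 ± 2.46 FPKM with Vehicle (log2 change -0.45, adjusted p = 0.11 with limma and 0.046 with the block). Heatr1, Utp20, Utp18, Utp15, Wdr75 and Wdr3 had log2 changes of -0.46, -0.50, -0.41, -0.26, -0.37 and -0.30, each with groups that did not overlap and none with an adjusted p under 0.11 with limma. Utp20, a very long scaffold protein, had the lowest mean level of the 58 genes, at 2.26 ± 0.362 FPKM with PGE2 and 3.58 ± 0.218 FPKM with Vehicle. Rrp12, needed for export of the subunits, averaged 3.98 ± 0.521 FPKM with PGE2 and 6.15 ± 0.722 FPKM with Vehicle (adjusted p = 0.12 with limma and 0.037 with the block).

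Of the enzymes that modify the small subunit RNA, Nat10 passed with the block. Nat10, an acetyltransferase of cytidines, had 7.76, 7.89 and 5.98 FPKM in the PGE2 replicates and 12.9, 11.5 and 9.12 FPKM in the Vehicle replicates. Its groups were apart, with a log2 change of -0.56 (SE 0.15, adjusted p = 0.16 with limma and 0.026 with the block). Emg1, a methyltransferase for a pseudouridine of that RNA and the small subunit gene with the highest level, had 79.8, 96.7 and 104 FPKM in the PGE2 replicates and 89.5, 90.7 and 106 FPKM in the Vehicle replicates. The groups overlapped throughout (log2 change -0.03, SE 0.12, adjusted p = 0.94 with limma). The dimethyltransferase Dimt1 was at 3.62 ± 0.0725 FPKM with PGE2 and 4.38 ± 0.714 FPKM with Vehicle (adjusted p = 0.52 with limma). The remaining members, Noc4l, Bysl and the helicase gene Ddx10, had log2 changes of -0.28, -0.28 and -0.17.

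The large subunit genes held 2 of the 3 falls called by limma, against 0.239% of all tested genes that fell. All 19 had a lower mean with PGE2, against 56.7%, with a median log2 change of -0.38. At an unadjusted p under 0.05 with limma 15 were lower, against 7.59%. In 17 all PGE2 libraries were below all Vehicle libraries, against 11.9%. Grwd1, a WD-repeat chaperone of a ribosomal protein of the large subunit, had 6.55, 6.99 and 6.52 FPKM in the PGE2 replicates and 11.1, 10.7 and 10.3 FPKM in the Vehicle replicates. Every PGE2 library was more than 3 FPKM below every Vehicle library. The log2 change was -0.61 (SE 0.08, adjusted p = 0.029 with limma), and it was -0.60 in coverage (adjusted p = 0.022). When 1 library was left out the adjusted p was 0.13, 0.14 and 0.085 without PGE2 replicates 1, 2 and 3 and 0.12, 0.16 and 0.052 without Vehicle replicates 1, 2 and 3. The gene (ENSMUSG00000053801.17) spans chromosome 7 from 45825227 to 45830944 on the minus strand in mm10.

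Gnl3 (nucleostemin), a nucleolar GTPase of proliferating cells, had 17.6, 19.4 and 16.7 FPKM in the PGE2 replicates and 26.9, 29.8 and 28.2 FPKM in the Vehicle replicates. The highest PGE2 library was far below the lowest Vehicle library. The log2 change was -0.63 (SE 0.09, adjusted p = 0.031 with limma), with -0.63 in coverage (adjusted p = 0.025). It missed the threshold without each library, at adjusted p of 0.13, 0.086 and 0.089 without PGE2 replicates 1, 2 and 3 and 0.099, 0.16 and 0.068 without Vehicle replicates 1, 2 and 3 with limma. The call was also lost when genes of any level were tested (0.08) and with equal sums over annotated genes (0.056). Gnl3 (ENSMUSG00000042354.6) lies on chromosome 14 from 31012434 to 31019089 on the minus strand in mm10. Gnl2, a related GTPase, averaged 22.9 ± 1.86 FPKM with PGE2 and 26.8 ± 1.65 FPKM with Vehicle (adjusted p = 0.39 with limma).

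Nop2, a methyltransferase of the large subunit RNA, came closest to the threshold among the other large subunit genes. It had 22.3, 22.8 and 22.2 FPKM in the PGE2 replicates and 31.4, 29.7 and 29.9 FPKM in the Vehicle replicates. The range within each group was small next to the gap between them (log2 change -0.42, SE 0.07, adjusted p = 0.057 with limma and 0.036 with the block). Rrp1b averaged 11.4 ± 1.55 FPKM with PGE2 and 17 ± 0.532 FPKM with Vehicle (log2 change -0.54, adjusted p = 0.083 with limma and 0.036 with the block). Its coverage changed by -0.42 on the log2 scale.

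Noc2l, a factor of the early large subunit precursor, had the highest level of the large subunit genes. It had 41.2, 41.1 and 32.4 FPKM in the PGE2 replicates and 63.5, 54.5 and 45.3 FPKM in the Vehicle replicates. The groups were apart, and replicate 3 was the lowest in each (log2 change -0.49, SE 0.15, adjusted p = 0.21 with limma and 0.028 with the block). Its partner Noc3l had a log2 change of -0.47, with adjusted p = 0.17 with limma. The PeBoW complex, which acts in large subunit RNA processing, is made of 3 members, Bop1, Pes1 and Wdr12. Bop1 averaged 25.5 ± 2.05 FPKM with PGE2 and 34 ± 3.3 FPKM with Vehicle (adjusted p = 0.15 with limma and 0.045 with the block). Pes1 was at 24 ± 1.39 FPKM with PGE2 and 27.7 ± 1.61 FPKM with Vehicle, and Wdr12 at 2.97 ± 0.516 FPKM with PGE2 and 3.5 ± 0.272 FPKM with Vehicle. The groups overlapped for Wdr12 and not for Bop1 or Pes1; Pes1 and Wdr12 passed neither fit.

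The DEAD-box helicases of this step, Ddx56, Ddx27 and Ddx18, unwind RNA during assembly and had log2 changes of -0.33, -0.33 and -0.28. The GTPase Gtpbp4, the assembly factors Rrs1, Nop16 and Mrto4, and Ebna1bp2 and Nip7 had log2 changes of -0.38, -0.37, -0.39, -0.39, -0.22 and -0.25. None of these 9 genes was called with limma or with the block, and the groups overlapped only for Nip7 among them.

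**Figure D3:**
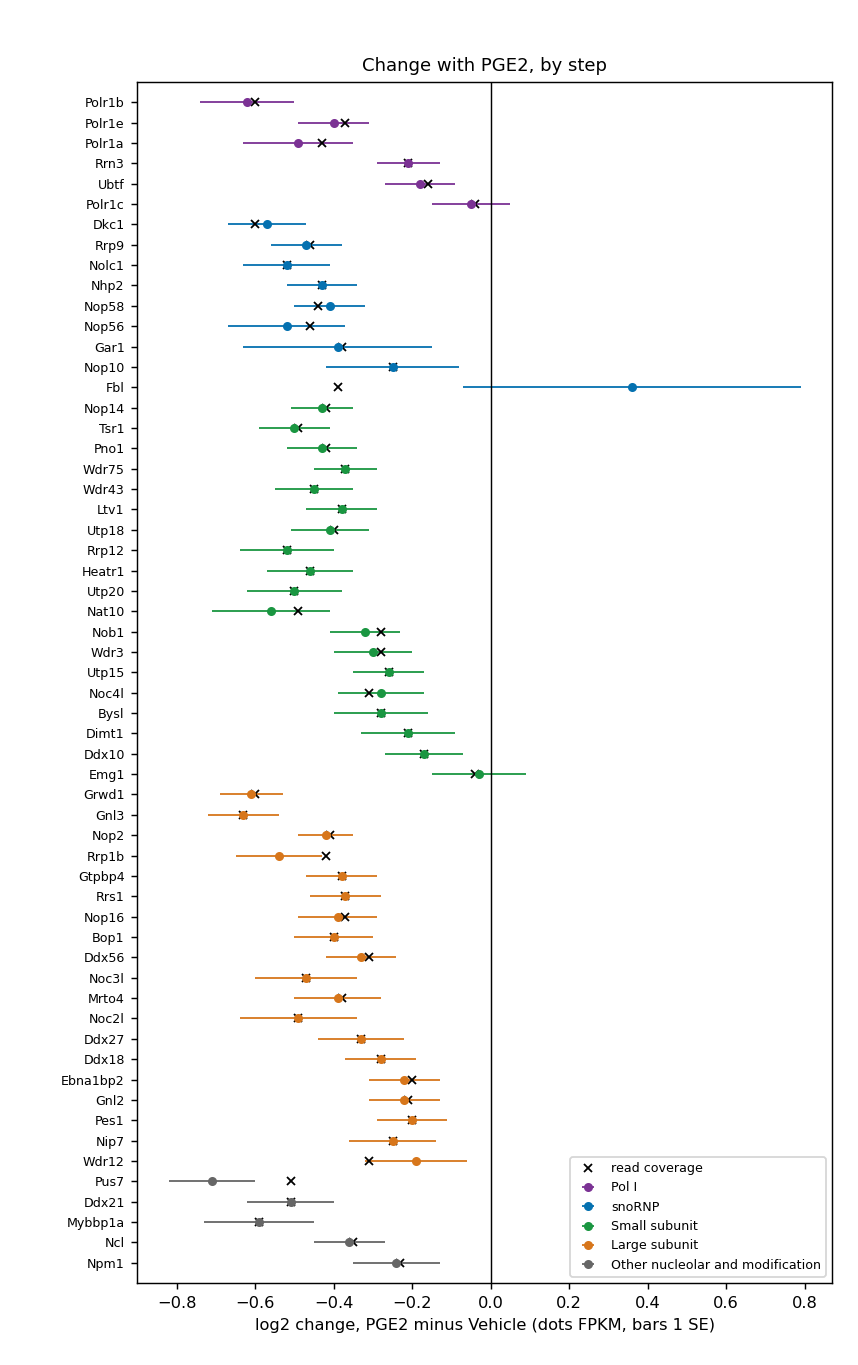
Log2 change of the 58 genes, PGE2 minus Vehicle, by step: dots are FPKM with bars of 1 SE, crosses are read coverage. All crosses and 57 of 58 dots lie left of 0, Fbl being the exception in FPKM; Fbl, Pus7, Rrp1b and Wdr12 are the genes whose dot and cross differ by over 0.1.

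Of the 5 remaining genes Pus7 was called by limma, against 0.239% of all tested genes that fell. Pus7, a pseudouridine synthase that acts without a guide RNA on several kinds of RNA, had 4.77, 4.61 and 3.92 FPKM in the PGE2 replicates and 7.38, 8.92 and 7.44 FPKM in the Vehicle replicates. All PGE2 libraries were below all Vehicle libraries, and its log2 change of -0.71 was the most negative of the 58 (SE 0.11, adjusted p = 0.048 with limma). In coverage the log2 change was -0.51 and missed the threshold (adjusted p = 0.056), as FPKM did when genes of any level were tested (0.14), with equal sums over annotated genes (0.09) and without the variance trend (0.052). Left-out libraries gave adjusted p of 0.13, 0.18 and 0.11 without PGE2 replicates 1, 2 and 3 and 0.15, 0.19 and 0.074 without Vehicle replicates 1, 2 and 3. Pus7 (ENSMUSG00000057541.14) spans chromosome 5 from 23740648 to 23783711 on the minus strand in mm10.

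Ddx21, a helicase that binds Pol I transcripts and snoRNAs, had 37.4, 36.1 and 29.4 FPKM in the PGE2 replicates and 48.5, 47.9 and 50.7 FPKM in the Vehicle replicates. The Vehicle libraries were close to each other and above all PGE2 libraries (log2 change -0.51, SE 0.11, adjusted p = 0.088 with limma). With the block it stayed just above the threshold, at 0.0504, and was not called. Mybbp1a, a nucleolar protein that binds MYB and p53, had 32.8, 30.6 and 23.7 FPKM in the PGE2 replicates and 46.7, 45.6 and 39.5 FPKM in the Vehicle replicates. The groups did not overlap, and replicate 3 was the lowest in both (log2 change -0.59, SE 0.14, adjusted p = 0.11 with limma and 0.017 with the block).

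The abundant nucleolar proteins also had lower means, and neither passed either fit. Npm1 (nucleophosmin), the gene with the highest level of the 58, had 334, 363 and 386 FPKM in the PGE2 replicates and 421, 391 and 466 FPKM in the Vehicle replicates. The highest PGE2 library was just below the lowest Vehicle library (log2 change -0.24, SE 0.11, adjusted p = 0.41 with limma). Ncl (nucleolin) averaged 81 ± 6.39 FPKM with PGE2 and 104 ± 0.735 FPKM with Vehicle (log2 change -0.36, adjusted p = 0.13 with limma).

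Read coverage comes from the same reads as FPKM, and its scaling makes both nearly equal for single-transcript genes. It is therefore not separate evidence. Coverage gave the same picture as FPKM for most members. Scaled to depth, it was lower with PGE2 in 58 of 58 genes, with a median log2 change of -0.38, and 0 rose and 6 fell with limma (Grwd1, Gnl3, Nop2, Nop14, Dkc1 and Polr1b), against 0.388% of all tested genes that fell and 0.925% that rose. The log2 changes in coverage and in FPKM were within 0.1 of each other for 54 of 58. All 58 genes are annotated as protein coding. Exons of 20 of them overlap those of a gene on the opposite strand, among them Grwd1, Dkc1, Nop14, Tsr1, Noc2l, Nop56, Rrp9 and Polr1a. The kit marks strand, but whether the counting used it is not given in the sources used here.

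The third PGE2 library differed from the other 2 in these genes. In PGE2 replicate 3, 43 of 58 members were below the mean of PGE2 replicates 1 and 2, with a median difference of -0.13 on the log2(FPKM + 1) scale. In Vehicle replicate 3, 30 of 58 were below the mean of the other 2 Vehicle libraries, with a median of -0.01. Across the 58 genes the difference of PGE2 replicate 3 went with the exonic length of the gene, at a Pearson r of -0.43 and a Spearman rho of -0.43, and that of Vehicle replicate 3 at -0.10 and -0.01; the points share their libraries. Without PGE2 replicate 3 the median log2 change of the 58 was -0.36, and 57 were still lower in the mean. The log2 change between the groups itself had an r of -0.17 and a rho of -0.22 with exonic length across the 58 genes, and -0.19 and -0.24 in coverage.

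**Figure D4:**
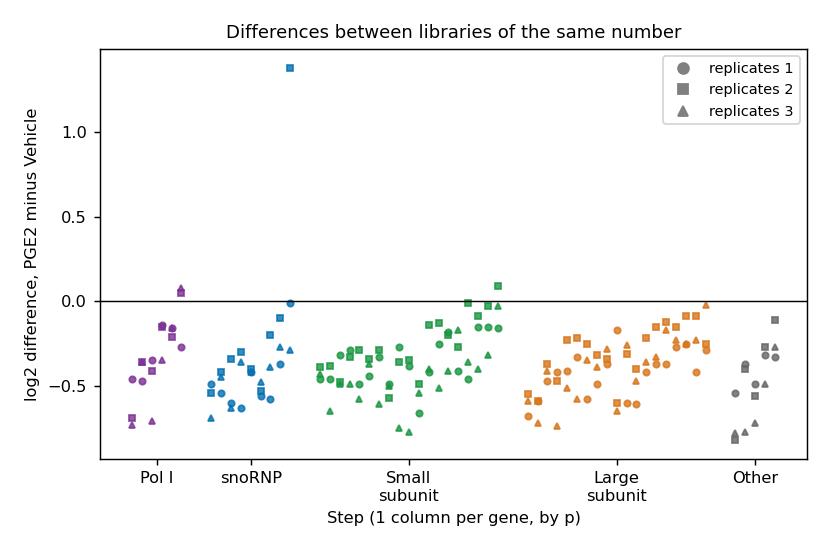
Log2(FPKM + 1) in each PGE2 library minus that in the Vehicle library of the same number, 3 points per gene, with genes in columns by step. All 3 points lie below 0 for 55 of 58 genes; the median over the 58 genes is -0.42, -0.30 and -0.42 for replicates 1, 2 and 3, and the high point is Fbl in replicates 2.

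Further genes of the same steps, taken from lists of pathway genes, mostly had lower means as well. Of 112 tested genes listed under the 4 steps outside the 58, 99 had a lower mean with PGE2, against 56.7% of all tested genes. With limma 0 fell and 1 rose, against 0.239% and 0.57%. With the block 9 fell and 1 rose, against 1.49% and 1.77%. At an unadjusted p under 0.05 with limma there were 43 lower and 1 higher, against 7.59% and 5.46%. The median over the 112 was -0.20, against -0.39 for the 58, a difference that was not tested. The choice of the 58 and of the lists, made with earlier results known, may bear on these values. By list the medians were -0.07 over 11 genes listed under Pol I and -0.18 over 11 under snoRNP and its assembly. They were -0.22 over 38 listed under the small subunit and -0.22 over 52 under the large subunit. Some listed genes, Zfp593 for example, may act in another step than that of their list. In the Pol I list the smallest p-values were those of the subunit gene Twistnb, of Tcof1, whose product treacle acts in ribosomal DNA transcription, and of Cd3eap, another subunit gene. Their log2 changes were -0.35, -0.48 and -0.36, and limma gave adjusted p of 0.13, 0.17 and 0.20. In the snoRNP list Znhit6, a factor of box C/D assembly, was at 4.48 ± 0.3 FPKM with PGE2 and 7.11 ± 0.629 FPKM with Vehicle (log2 change -0.56, adjusted p = 0.065 with limma and 0.048 with the block). Zfp593 and Naf1 of that list had log2 changes of -0.28 and -0.23, with groups that overlapped.

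In the small subunit list Wdr46 had a log2 change of -0.59 (adjusted p = 0.068 with limma and 0.039 with the block), and Cirh1a, whose human counterpart is UTP4, -0.47 (0.067 and 0.033). In the large subunit list Mdn1, the giant ATPase that remodels the large subunit precursor, was at 1.57 ± 0.435 FPKM with PGE2 and 3.22 ± 0.347 FPKM with Vehicle. Its log2 change of -0.73 lay beyond that of every one of the 58 (adjusted p = 0.095 with limma and 0.048 with the block). Sdad1, an assembly factor, averaged 4.7 ± 0.472 FPKM with PGE2 and 7.04 ± 0.418 FPKM with Vehicle, with a log2 change of -0.50 and limma's adjusted p at 0.085. Ftsj3, a methyltransferase-like assembly factor, had a log2 change of -0.44 (adjusted p = 0.10 with limma and 0.035 with the block).

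The gene that rose was Riok1, an atypical kinase of late small subunit maturation. It had 37.1, 35.7 and 36 FPKM in the PGE2 replicates, against 20.3, 21.1 and 21.3 FPKM in the Vehicle replicates. The groups were far apart in the direction opposite to most small subunit genes (log2 change 0.76, SE 0.07, adjusted p = 0.0063 with limma, and 0.77 in coverage). With PGE2 replicate 2 left out the limma call was lost (adjusted p = 0.056), and it held without each of the other 5 libraries.

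For the lists that follow, the shares over all tested genes were 56.7% with a lower mean and 7.59% lower at an unadjusted p under 0.05 with limma. After adjustment 0.239% fell with limma and 1.49% with the block. Of 22 RNA polymerase III genes 17 had a lower mean, with a median log2 change of -0.07 and 0 called by limma. Of the 22, 2 were lower at an unadjusted p under 0.05 with limma (Polr3d and Polr3e), and Polr3d fell with the block (adjusted p = 0.049). Gtf3c2, the next by p, had a log2 change of -0.21. Of 19 nucleases and exosome subunits 18 had a lower mean, with a median of -0.17. Aen, a nuclease induced by p53, was the 1 that fell with limma, at 11.3 ± 1.61 FPKM with PGE2 and 20.2 ± 0.288 FPKM with Vehicle (adjusted p = 0.031), and among the fits with 1 library left out it passed in that without PGE2 replicate 1 (0.042) and in no other (up to 0.15). The call of Aen was also lost when genes of any level were tested (0.11) and with equal sums over annotated genes (0.056). Dis3, a catalytic exosome subunit, and Papd5, which adds tails to RNA for decay, had log2 changes of -0.47 and -0.30 and were called in neither fit. Of 11 other pseudouridine synthases 9 had a lower mean and 0 were called by limma, 3 being lower at an unadjusted p under 0.05, namely Pus7l, Trub1 and Rpusd2 with log2 changes of -0.40, -0.39 and -0.36. Of 10 regulators of ribosomal RNA synthesis 0 were called, and 0 were at an unadjusted p under 0.05 with limma. Rps6kb1 and Sirt7 had log2 changes of -0.22 and 0.19, with groups that overlapped. Myc, which activates many genes of this pathway, had 81.1, 60.1 and 71.8 FPKM in the PGE2 replicates and 110, 74.6 and 86.4 FPKM in the Vehicle replicates. Its groups overlapped, while each PGE2 library was below the Vehicle library of its number (log2 change -0.34, SE 0.17, adjusted p = 0.46 with limma, and not called with the block at 0.071).

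**Figure D5:**
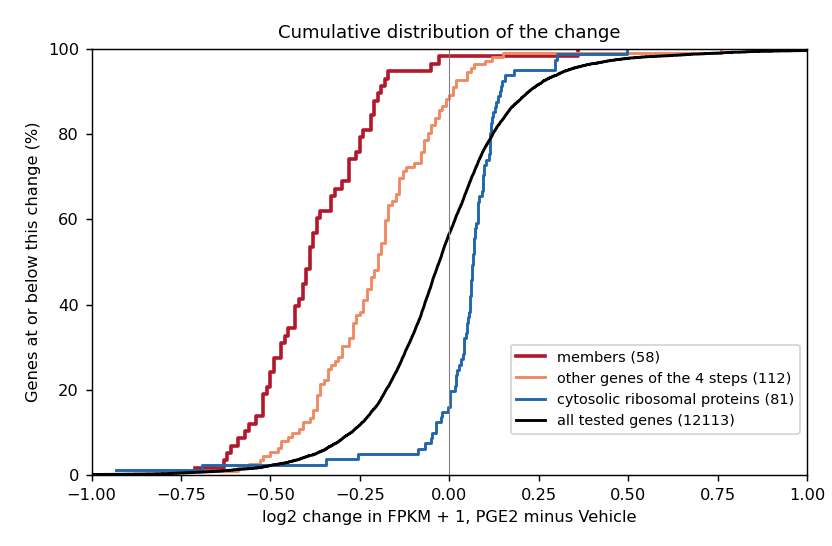
Cumulative share of genes (y axis, percent) by log2 change, PGE2 minus Vehicle (x axis), for the 58 genes, 112 other genes of the same steps, 81 cytosolic ribosomal protein genes and all 12113 tested genes; changes beyond 1 in either direction are not drawn. The medians are -0.39, -0.20, 0.07 and -0.03.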

How the data were processed

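RNA was column-extracted from sorted cells, and libraries were made with a stranded kit for polyadenylated RNA, per the labels' protocols. Trim Galore and HISAT2 were used on mm10, per the submitters' processing notes. The sources used here give no versions, annotation or program for the tables. Per the file headers, each deposited table has columns for coverage, FPKM and TPM. FPKM, as deposited, is the authors' scaling to library size and length, and the deposited coverage is unscaled mean read depth over a gene. The deposited TPM was treated as a score and not used, since a locus can be listed under both an assembled and an annotated entry. Counts are not at hand, so no counting interval is given.

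Annotated entries were used, with repeated IDs added up. Genes averaging 1 FPKM or more were compared as log2(FPKM + 1), which understates changes of low genes, with limma 3.58.1 in R 4.3.3. The fit used a mean-variance trend, no covariate, two-sided tests and Benjamini-Hochberg adjustment over 12113 genes at 0.05; it was also tested on simulated data. Coverage was divided by the library's median ratio of coverage to FPKM over single-transcript genes. The design had allowed for counts; the files hold FPKM.

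Across genes, the deviations of a library from its group's mean correlated at 0.23, 0.31 and 0.53 between same-number libraries 1, 2 and 3, and between other numbers at -0.43 to 0.27. PGE2 replicate 1 went with Vehicle replicate 2 (0.27) as well as with its own number (0.23), and PGE2 replicate 2 with Vehicle replicate 1 at 0.15. Replicate 3 thus stands apart while 1 and 2 are not told from each other. All 3 same-number values being above 0.1, the numbers were taken to pair the samples, from the data and not from the labels. With replicates 1 and 2 swapped the values are above 0.1 as well, so this rule does not choose between these pairings. The pairing was chosen from the same values that the block was then fitted to, a limit on every call with the block. The fit with the block is given beside a result where it changes the call. Groups and numbers come from the sample titles. The members and lists were chosen with earlier results of these data known. Values in every library are given for called members and, per step, the 3 with the smallest p and the one with the highest level; Nat10, Gar1 and Fbl were added after their values were seen. From other lists, called genes, up to 3 with the smallest p, and Myc are named. Alternatives were another pseudocount, 2 other filters, coverage, 3 scalings, no variance trend, the block and each library left out. Python 3.11.15 with matplotlib 3.10.9 made the figures.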

Additional observations from a re-analysis of the deposited data

How the results depend on the processing

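The median log2 change of the 58 genes moved least, from -0.43 to -0.36 over all alternatives, including each library left out. The calls moved more. Members that fell numbered 3 and, under the alternatives, 6 with a minimum of 5 FPKM, 6 in coverage, 20 with the replicate block and 0 without any 1 library. Grwd1 was called in each alternative that kept all 6 libraries. Without a minimum Grwd1, Nop14 and Nop2 were called, with equal sums over annotated genes Grwd1 and Dkc1, and without the variance trend Grwd1 and Gnl3. Over all genes, 69 rose and 29 fell; 33 and 12 did without a minimum, 112 and 47 in coverage, 215 and 180 with the block. With equal sums, and without the variance trend, 16 fell in each. Without 1 library 16 to 53 rose and 4 to 16 fell. The log2 change of Emg1 ran from -0.11 to 0.07 with 1 library left out and was above 0 in the fits lacking PGE2 replicate 1 (0.07) or Vehicle replicate 3 (0.04). That of Fbl ran from -0.18 to 0.79, below 0 in the fit lacking Vehicle replicate 2, and was -0.39 in coverage. The causes were not tested.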

Other observations

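Most genes for the proteins of the ribosome itself had a higher mean with PGE2, by little. Of 81 tested genes named as cytosolic ribosomal proteins 13 had a lower mean with PGE2 and 68 a higher one, with a median log2 change of 0.07 and a median level of 815 FPKM; 0 were called by limma in either direction, with 1 below and 0 above at an unadjusted p under 0.05. By pairs of the same number their median difference was -0.15, 0.13 and 0.20, so the pairs did not share a direction. Of 76 mitochondrial ribosomal proteins 58 had a lower mean, with a median of -0.07, 0 called by limma, and 7 below and 0 above at the unadjusted threshold. Of all tested genes 56.7% had a lower mean, and 7.59% were below and 5.46% above at that threshold. The difference between the ribosomal protein groups and the 58 assembly genes was not tested.

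snoRNA genes lie inside 7 of the 58 genes on the same strand, 21 in all, with 5 in Nop56. The summed FPKM of the assembled loci that overlap each member on its strand was lower with PGE2 for 58 of 58 members, with a median log2 change of -0.39. For Fbl this log2 change was -0.25, with 73.2, 75 and 108 FPKM in the PGE2 replicates and 99.3, 75.4 and 133 FPKM in the Vehicle replicates. Vehicle replicate 2 was thus at 75.4 FPKM by assembled locus and at 26 FPKM in the annotated entry. Other members also differed between the assembled locus and the annotated entry. By locus the log2 change was -0.19 for Utp20 and -0.04 for Dimt1, against -0.50 and -0.21 in the annotated entries. For Gnl3 it was larger by locus, at -0.75 against -0.63. The reasons were not tested.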
